A study of Mus musculus with 24 samples.

Results

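The data cover 10 genes of the signalling route by which tuft cells sense the gut lumen, in distal jejunum RNA from 24 mice. They were *Sucnr1*, *Ffar3*, *Tas1r3*, *Gnat3*, *Gng13*, *Rgs13*, *Plcb2*, *Itpr2*, *Trpm5* and *Chat*, picked by symbol out of 56691 genes in the count table, and each symbol had 1 row. The mice formed 8 groups of 3, given by sex, by genotype (wild type or *Ptk6*−/−) and by drinking water (regular water as control, or 100 mM succinate for 7 days). *Ptk6* encodes an epithelial tyrosine kinase, and the *Ptk6*−/− mice carried a germline knockout on a C57BL/6 background. At the end of the experiment the mice, all of 1 colony but not of 1 litter, were 9 to 11 weeks old and matched for age. Whole tissue was sequenced, so fewer cells of a type and less RNA per cell cannot be told apart in any value below.

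Tuft cells are rare chemosensory cells of the intestinal epithelium. They read luminal signals through G protein-coupled receptors, and succinate, a product of microbial metabolism, acts on the receptor SUCNR1. In the taste-like cascade that follows, a G protein activates a phospholipase C, inositol trisphosphate releases calcium from internal stores, and the calcium opens the cation channel TRPM5. Active tuft cells release mediators such as interleukin 25, which sets off a type 2 immune response that in turn drives the epithelium to make more tuft cells.

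The libraries held 8080321 to 52824743 counts, with a median of 43017687. In male wild type control replicate 1 and male *Ptk6*−/− succinate replicate 1, an 18S ribosomal RNA gene took 51.2% (95% Wilson interval 51.20 to 51.24) and 29.7% (29.68 to 29.74) of the counts, against 0.109% to 4.49% in the other 22 libraries, and these intervals cover counting error only. Female wild type succinate replicate 2 carried a summed level of 17370 CPM (counts scaled by library size) of 8 heart muscle genes, where no other library exceeded 222. The same library held transcripts of both sexes, with 4 Y-linked genes at 74.3 CPM (33.5 to 90.2 in the 12 males, 0 to 0.971 in the other 11 females) and *Xist* at 79.1 CPM (92.1 to 184 in those females, 0.295 to 1.66 in males). It is the library labelled female wild type succinate replicate 2 throughout. For the comparisons of the members that these 3 libraries enter, results without them are given as well, except for the sex contrast within *Ptk6*−/− mice. Marker and pathway lists are given with all libraries unless stated. The genotype labels were checked by *Ptk6* itself, at 284 to 2405 counts in wild type and 7 to 61 counts in *Ptk6*−/− libraries. The labelled tissue was checked by 14 enterocyte genes, whose summed level was between 20930 and 60890 CPM in every library.

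Sequence upstream of the start is shown for the 4 members that passed the test in the succinate comparison averaged over sex and genotype, so that they can be compared with the motifs of factors known in tuft cells. The sequences are the 250 bases before the annotated start, on the coding strand from 5′ to 3′, from RefSeq on build GRCm38.p6. Windows were found for 10 of 10 members, with 2 for *Gng13*. Capitals mark matches to the octamer ATGCAAAT, the kind of element bound by POU factors such as the tuft cell regulator POU2F3, and to TTCNNNNGAA, the spacing preferred by STAT6, a transcription factor of type 2 immunity.
Sucnr1, chr3:60081619-60081868, plus strand: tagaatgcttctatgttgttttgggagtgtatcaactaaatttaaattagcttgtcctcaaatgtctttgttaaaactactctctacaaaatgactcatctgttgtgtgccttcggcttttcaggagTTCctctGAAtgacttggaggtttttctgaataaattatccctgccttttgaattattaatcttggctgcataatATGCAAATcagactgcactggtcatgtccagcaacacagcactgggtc
Ffar3, chr7:30856179-30856428, minus strand: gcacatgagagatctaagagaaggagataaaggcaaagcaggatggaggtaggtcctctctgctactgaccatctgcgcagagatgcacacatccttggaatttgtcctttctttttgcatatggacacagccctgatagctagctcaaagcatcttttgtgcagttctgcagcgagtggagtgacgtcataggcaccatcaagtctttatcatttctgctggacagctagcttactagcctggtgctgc
Rgs13, chr1:144177373-144177622, minus strand: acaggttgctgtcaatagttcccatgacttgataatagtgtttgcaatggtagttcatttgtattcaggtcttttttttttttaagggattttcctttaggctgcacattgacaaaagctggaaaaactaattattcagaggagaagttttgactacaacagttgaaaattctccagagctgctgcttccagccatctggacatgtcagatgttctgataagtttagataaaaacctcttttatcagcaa
Trpm5, chr7:143094643-143094892, minus strand: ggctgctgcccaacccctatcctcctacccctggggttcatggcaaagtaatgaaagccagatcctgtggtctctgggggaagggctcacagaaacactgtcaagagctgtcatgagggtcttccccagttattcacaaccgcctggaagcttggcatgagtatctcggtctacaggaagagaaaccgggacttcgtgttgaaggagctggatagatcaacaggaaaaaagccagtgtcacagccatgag

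Both strands of the 300 base window around each start, from 250 bases before it to 50 bases after it, were searched. The octamer lay in 1 of the 11 member windows, that of *Sucnr1*, at bases −48 to −41 from the start, against 1.74% of 32851 windows of all genes. The STAT spacing lay in 2 of the 11, at bases −123 to −114 of *Sucnr1* and at bases −249 to −240 of *Gnat3*, against 6.95% of all windows. Of 17 windows of the tuft cell identity genes described below, 1 held the octamer and 4 the STAT spacing. The octamer in *Sucnr1* was on the coding strand and did not overlap the STAT spacing, which reads the same on both strands. A match describes letters in the window and not a bound site, and its absence says nothing of the factor.

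Averaged over both sexes and both genotypes, succinate raised *Trpm5*, *Ffar3*, *Rgs13* and *Sucnr1*. A gene was called where edgeR's quasi-likelihood test gave a Benjamini-Hochberg adjusted p under 0.05 over all genes tested and a change of at least 2-fold. By this rule 4 of the 10 members were called, all higher, against 0.728% of the 21694 genes tested. The median log2 fold change over the 10 was 1.496, and over all genes tested it was −0.0025. *Plcb2* passed on its adjusted p and not on size (log2 fold change 0.62 ± 0.14 SE, adjusted p = 0.0396). The same 4 genes were called without the 3 libraries named above (0.423% of genes), in a comparison chosen after the data were seen, and the *Plcb2* value then no longer passed. DESeq2 and voom with sample quality weights each called 6 members, these 4 with *Gnat3* and *Gng13*, against 1.92% and 3.68% of the genes they tested. *Gng13* reached the filter of 10 counts in 7 treated and 1 control library, so it was tested because its treated libraries were high, and its calls support nothing further. Leaving out the library labelled female wild type succinate replicate 2 alone also kept these 4 calls (0.505% of genes), with *Plcb2* at an adjusted p of 0.0741 by edgeR.

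**Figure D1:**
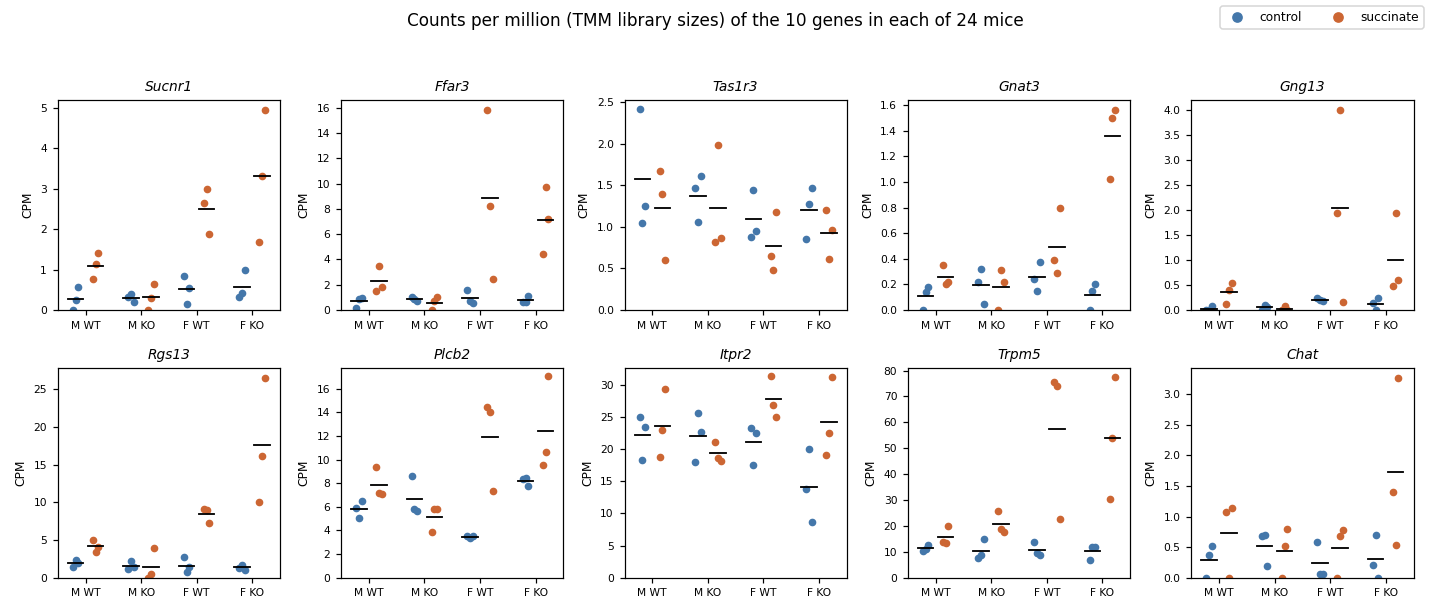
Level of each gene in CPM (vertical axis, from 0, a separate scale for each gene) in male (M) and female (F) wild type (WT) and *Ptk6*−/− (KO) mice. Each dot is 1 mouse and each line the mean of 3; *Trpm5* lies between 22.7 and 77.4 CPM in the 6 female succinate mice and between 6.83 and 25.8 CPM in the other 18.

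Of the 3 receptors, *Sucnr1* is the one that binds succinate. It lies on chromosome 3 at 59989290 to 59994987 (plus strand, GRCm39, as are all gene positions below) and was low, with 1254 counts over the 24 libraries. In females its level was 0.832, 0.151 and 0.552 CPM in wild type controls and 2.64, 2.98 and 1.88 CPM after succinate. In *Ptk6*−/− females the controls were at 0.331, 0.425 and 0.982 CPM and the succinate mice at 1.69, 3.32 and 4.94 CPM. Treated and control females did not overlap in either genotype. Wild type males were at 0, 0.243 and 0.567 CPM as controls and at 0.756, 1.13 and 1.399 CPM after succinate, again without overlap, while *Ptk6*−/− males overlapped, at 0.312, 0.398 and 0.196 CPM as controls and 0, 0.285 and 0.643 CPM after succinate. The log2 fold change averaged over the groups was 1.75 ± 0.38 SE (adjusted p = 0.0256, edgeR). Leaving out 1 library at a time gave 1.55 to 1.98, and the call was lost in 7 of the 24 cases.

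*Ffar3*, a receptor for short chain fatty acids that enteroendocrine cells also carry, lies on chromosome 7 at 30553755 to 30555603 (minus strand). Female wild type controls were at 1.55, 0.691 and 0.574 CPM, and succinate mice of that group at 15.8, 8.21 and 2.47 CPM. *Ptk6*−/− females were at 0.614, 0.616 and 1.13 CPM as controls and at 4.46, 9.75 and 7.19 CPM after succinate. All 6 treated females were above all 6 female controls. In wild type males the controls were at 0.162, 0.886 and 0.972 CPM and the treated mice at 1.48, 3.46 and 1.83 CPM, which did not overlap. *Ptk6*−/− males gave 1.01, 0.856 and 0.697 CPM as controls and 0, 0.683 and 0.998 CPM after succinate. Averaged over the groups the log2 fold change was 1.94 ± 0.34 SE (adjusted p = 0.00387, edgeR), and it was called in every one of the 24 fits that left out 1 library. A list of 12 enteroendocrine markers had 0 called genes and a median log2 fold change of −0.11 in the same comparison. In treated wild type males it summed to 188.3, 514.5 and 425.3 CPM, in the order of *Ffar3*, against 329.8 to 363.2 CPM in controls. Treated wild type females were at 221.6 to 360 CPM against 375.9 to 467 CPM. Treated *Ptk6*−/− females were at 179.5 to 417.9 CPM against 253.8 to 512.7 CPM. Its part in the *Ffar3* values was not tested.

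*Tas1r3*, the shared subunit of the sweet and umami taste receptors, had a negative estimate in each of the 4 groups, none past the test. The sign in males turned without the libraries rich in 18S, to 0.125 in wild type and 0.021 in *Ptk6*−/− mice on the log2 scale. It lies on chromosome 4 at 155943725 to 155947819 (minus strand). Its levels ran from 0.850 to 2.43 CPM over the 12 controls and from 0.487 to 1.99 CPM over the 12 succinate mice, with overlap in each group. Its averaged log2 fold change was −0.33 ± 0.25 SE (adjusted p = 0.536, edgeR), and −0.11 without the 3 libraries named above. Its 36 base overlap with *Dvl1*, on the opposite strand, is the shortest with a named gene among the members.

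The G protein subunits were close to the detection limit in controls. *Gnat3* encodes gustducin, the alpha subunit of taste cells (chromosome 5, 18167547 to 18224832, plus strand), and had 438 counts in all. *Ptk6*−/− females were at 0, 0.149 and 0.202 CPM as controls and between 1.03 and 1.56 CPM after succinate, without overlap, with a log2 fold change of 3.52 ± 0.93 SE that did not pass (adjusted p = 0.343, edgeR). Wild type females were at 0.241, 0.151 and 0.375 CPM as controls and at 0.393, 0.292 and 0.798 CPM after succinate, which overlapped, and all 12 male libraries lay at or below 0.352 CPM. In the average over groups the log2 fold change was 1.43 ± 0.46 SE (adjusted p = 0.156, edgeR), which did not pass with edgeR and passed with DESeq2 and voom.

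*Gng13*, the gamma subunit that pairs with gustducin, lies on chromosome 17 at 25936145 to 25938380 (plus strand), overlaps *Chtf18* by 481 bases on the other strand and had 479 counts. Wild type females were at 0.241, 0.194 and 0.177 CPM as controls and at 1.94, 3.99 and 0.155 CPM after succinate, so that 1 treated mouse stayed at the control level. *Ptk6*−/− females were at 0.142, 0 and 0.231 CPM as controls and at 0.486, 1.93 and 0.594 CPM after succinate. Wild type males went from 0, 0 and 4 counts to 7, 20 and 22 counts, while no *Ptk6*−/− male exceeded 5 counts. The gene was too low to be tested in either group of males. The averaged log2 fold change was 2.28 ± 0.71 SE (adjusted p = 0.143, edgeR), and *Chtf18* was at 0.01 ± 0.12 SE. Leaving out 1 library moved the *Gng13* estimate between 1.33 (without male *Ptk6*−/− succinate replicate 2) and 3.18 (without male wild type control replicate 3), and its adjusted p by edgeR between 0.0375 and 1. It was called in 1 of those 24 fits, that without wild type female succinate replicate 3, and by DESeq2 and voom with all libraries.

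*Rgs13* encodes a regulator that speeds the switching off of G proteins, and germinal centre B cells express it too. It lies on chromosome 1 at 144014392 to 144053110 (minus strand) and was the member called within a single group. *Ptk6*−/− females were at 1.32, 1.72 and 1.07 CPM as controls and at 10.04, 16.1 and 26.4 CPM after succinate. The difference was a log2 fold change of 3.65 ± 0.45 SE (adjusted p = 0.0494, edgeR) that counted as called. The call was lost in 5 of the 6 fits that left out 1 library, with a replicate block and with a gene length offset, while the estimate stayed between 3.24 and 3.94 when 1 library was left out. Wild type females were at 2.74, 0.756 and 1.39 CPM as controls and at 9.18, 8.99 and 7.31 CPM after succinate (log2 fold change 2.40 ± 0.49 SE, adjusted p = 0.369, edgeR). Wild type males were at 1.38, 2.36 and 2.01 CPM as controls and 4.99, 3.48 and 4.03 CPM after succinate, again without overlap. *Ptk6*−/− males overlapped, with 0, 0.512 and 3.95 CPM after succinate against 1.19, 2.19 and 1.39 CPM. Over all groups the log2 fold change was 1.82 ± 0.33 SE (adjusted p = 0.0055, edgeR).

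Downstream of the G protein, *Plcb2* encodes the phospholipase C that makes inositol trisphosphate, and blood cells express it as well. It lies on chromosome 2 at 118537998 to 118558919 (minus strand). Wild type females were at 3.57, 3.37 and 3.53 CPM as controls and at 14.4, 13.98 and 7.34 CPM after succinate, a log2 fold change of 1.79 ± 0.35 SE (adjusted p = 0.315, edgeR). In *Ptk6*−/− females the controls were already at 8.39, 8.41 and 7.80 CPM, and succinate mice were at 9.57, 10.7 and 17.0 CPM. Neither pair of groups overlapped. Wild type males did not overlap either, at 5.91, 5.09 and 6.48 CPM as controls and 9.39, 7.16 and 7.09 CPM after succinate. *Ptk6*−/− males overlapped, at 5.62 to 8.62 CPM as controls and 3.84 to 5.86 CPM after succinate.

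*Itpr2*, a calcium release channel opened by inositol trisphosphate, had the smallest positive estimate. It spans 146009797 to 146403676 on chromosome 6 (minus strand) and is expressed in many cell types. Its levels ran from 8.69 to 25.6 CPM over the 12 controls and from 18.1 to 31.4 CPM over the 12 succinate mice. Its averaged log2 fold change was 0.27 ± 0.13 SE (adjusted p = 0.328, edgeR).

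*Trpm5*, the cation channel that ends the cascade, had the smallest adjusted p of the members in the averaged comparison. It lies on chromosome 7 at 142622890 to 142640951 (minus strand). Wild type females were at 13.9, 9.44 and 8.88 CPM as controls and at 75.4, 74.1 and 22.7 CPM after succinate. *Ptk6*−/− females were at 6.83, 12.1 and 11.8 CPM as controls and at 30.3, 54.1 and 77.4 CPM after succinate. The lowest treated female stood above the highest female control. Wild type males were at 10.4, 11.1 and 12.8 CPM as controls and 13.9, 13.4 and 19.97 CPM after succinate, and *Ptk6*−/− males at 7.54, 8.96 and 14.9 CPM and 25.8, 18.9 and 17.9 CPM. Treated libraries thus lay above the controls in each of the 4 groups, although in *Ptk6*−/− males 11% of all genes tested were separated in this direction. The averaged log2 fold change was 1.56 ± 0.20 SE (adjusted p = 0.00017, edgeR). *Tssc4*, which shares 1845 bases with it on the opposite strand, was at 0.50 ± 0.18 SE (adjusted p = 0.191, edgeR).

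*Chat*, the enzyme that makes acetylcholine in tuft cells and in enteric neurons, was too uneven to rank. It lies on chromosome 14 at 32130160 to 32187914 (minus strand), overlaps *Slc18a3* by 2413 bases on the same strand, and had 713 counts. Counts of 0 occurred in 5 libraries, among them wild type female succinate replicate 1, in which *Trpm5* had 3262 counts. *Ptk6*−/− females were at 0.213, 0.701 and 0 CPM as controls and at 1.403, 0.533 and 3.26 CPM after succinate, which overlapped. The averaged log2 fold change was 1.16 ± 0.71 SE (adjusted p = 0.426, edgeR), and that of *Slc18a3* was −0.25 ± 0.24 SE.

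**Figure D2:**
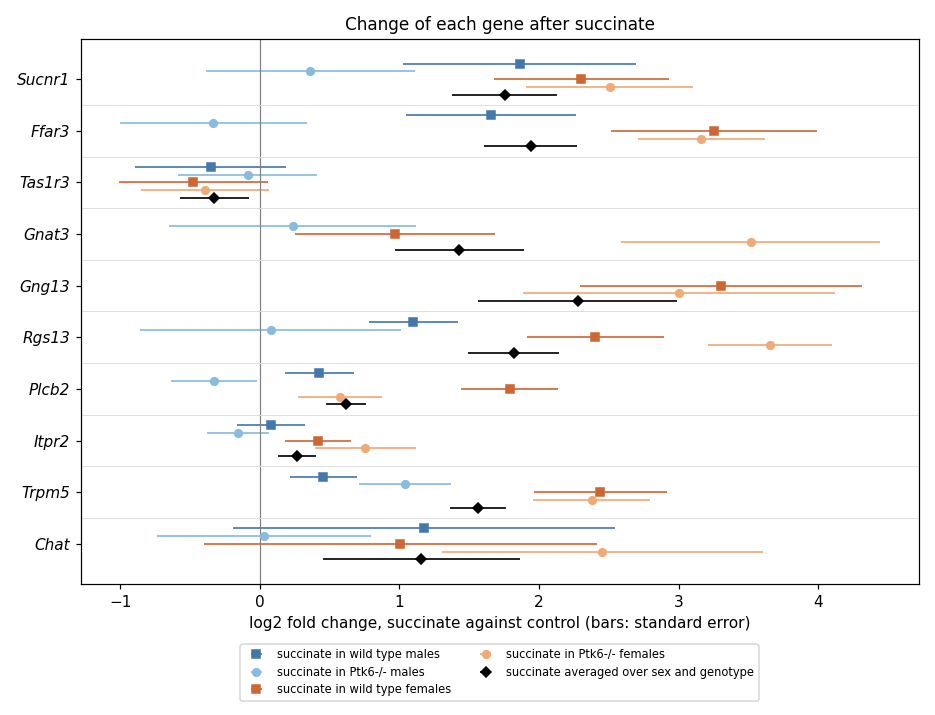
Log2 fold change of each gene after succinate (horizontal axis) in the 4 groups and averaged over them, with bars of 1 standard error; genes too low to be tested in a group have no symbol there. In females 9 of the 10 genes lie above 0 in both genotypes, with *Tas1r3* below it.

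Within the groups, the median estimate over the members was highest in females. Not every member followed it: *Chat* was at 1.18 in wild type males and 1.01 in wild type females, and *Tas1r3* was lower in females of each genotype. In *Ptk6*−/− females 7 of the 10 had all treated libraries above all controls (11.2% of the 19334 genes tested), and 1 was called (0.0879% of genes). The median log2 fold change of the members there was 2.48, against −0.04 over all genes. It ran from 1.83 (without treated replicate 3) to 2.8 (without control replicate 3) when 1 library was left out. In wild type females 6 of the 10 were separated in this way (5.96% of 18872 genes), with a median of 2.05 against 0.03 over all genes. None of the 10 was called there by edgeR (0% of genes), although 6 had an unadjusted p under 0.05 (7.77% of genes) and DESeq2 called 6 (1.38% of genes). Without wild type female succinate replicate 3, which had the lowest *Trpm5*, *Ffar3* and *Gng13* of its group, edgeR called 4 (3.23% of genes). Without the library labelled replicate 2, which holds male transcripts, 7 of the 10 were separated (8.27% of genes), the median over the 8 members still tested was 1.92, and edgeR called 0, although 5 had an unadjusted p under 0.05 (4.33% of genes). *Trpm5* was then at 2.23, *Ffar3* at 3.32, *Rgs13* at 2.37 and *Sucnr1* at 2.17 on the log2 scale. *Gnat3* and *Gng13* passed the filter on low counts in *Ptk6*−/− females through their treated libraries. *Chat* did mostly so there (counts of 9, 33 and 0 in controls against 78, 27 and 192). In wild type females this held mostly for *Gng13* (11, 9 and 8 against 84, 123 and 6) and *Chat* (27, 3 and 3 against 0, 21 and 30). A difference in these genes was thus built into their being tested, and they enter the medians above. *Gnat3* and *Gng13* are also among the 7 separated in *Ptk6*−/− females. *Gng13* is among the 6 called by DESeq2 in wild type females, the 6 with an unadjusted p under 0.05 and the 4 called without replicate 3. Their place in these counts supports nothing further. The 14 enterocyte genes were lower in treated females without overlap, at a sum of 28970 to 39260 CPM against 52570 to 58570 CPM in wild type and 20930 to 25420 CPM against 26010 to 60890 CPM in *Ptk6*−/− mice. None of the 14 was called in either group, 12 and 11 had a negative estimate, with medians of −0.70 and −0.66, and their part in the members' values was not tested. The 8 smooth muscle genes of the tissue wall had 8 positive estimates in wild type females, with a median of 0.73, and 6 in *Ptk6*−/− females, with a median of 0.51. Their sum was 7941, 7712 and 4021 CPM in the treated wild type females, in the same order as the members' sum of 151.8, 140.5 and 69.7 CPM, against 3357 to 4299 CPM in controls. In males of both genotypes 6 of the 8 were positive (medians 0.75 and 0.47), and in the averaged comparison 7 were, with 1 called, *Actg2* (1.12 ± 0.26 SE, adjusted p = 0.0355, edgeR). Their part in the members' values was not tested either.

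The median estimate was lower in males. In wild type males 8 members could be tested, and 5 of these were separated (4.62% of 19183 genes). None was called by edgeR (0% of genes), 2 had an unadjusted p under 0.05 (4.07% of genes), DESeq2 called 0 (0.246%) and voom called 2, *Ffar3* and *Sucnr1* (7.81%). In *Ptk6*−/− males 9 could be tested, and *Trpm5* was the 1 separated member (11% of 18966 genes). Again none was called by edgeR (0% of genes), DESeq2 (0.207%) or voom (0.0844%), and 1 of the 9 had an unadjusted p under 0.05, against 7.75% of genes. The median log2 fold change over the members tested was 0.78 in wild type and 0.03 in *Ptk6*−/− males, against 0.02 and −0.10 over all genes. Without the wild type control with a 51.2% share of 18S counts the wild type median was 0.61, 5 members were separated (7.64% of genes) and 0 were called. Without the treated *Ptk6*−/− male with a 29.7% share the *Ptk6*−/− median was 0.28, *Trpm5* alone was separated (17.7% of genes) and 0 were called. That median turned to −0.39 without treated replicate 3, so its sign rested on single libraries.

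The difference between the sexes was tested as an interaction, a comparison that was added after the values had been seen. Averaged over genotype, the succinate effect in females exceeded that in males by a log2 difference of 1.69 ± 0.40 SE for *Trpm5*, 2.54 ± 0.66 SE for *Ffar3*, 2.42 ± 0.64 SE for *Rgs13* and 1.14 ± 0.29 SE for *Plcb2*. Their adjusted p-values were 0.139, 0.187, 0.191 and 0.183 by edgeR, so that 0 members were called, against 0.0738% of 21694 genes. By unadjusted p, 5 members were under 0.05 (8.27% of genes). DESeq2 called 4 of them (*Ffar3*, *Plcb2*, *Rgs13* and *Trpm5*; 0.96% of genes), voom 2 (0.364%) and limma on log2(FPKM + 1) 2 (0.199%). Without the library of mixed sex the 4 differences were 1.57, 2.56, 2.39 and 1.07, and edgeR again called 0 members, as it did without all 3 libraries. Within *Ptk6*−/− mice alone, where that library has no part, the same contrast called 0 members (0% of 20471 genes) by edgeR, with 5 at an unadjusted p under 0.05 (7.12% of genes) and 2 called by DESeq2 (0.903%). edgeR called 3 members averaged over genotype, *Ffar3*, *Plcb2* and *Trpm5*, without wild type female succinate replicate 3 (0.753% of genes), and *Rgs13* without male *Ptk6*−/− succinate replicate 3 (0.129%). The *Rgs13* difference was 3.48 in the latter fit, the highest of the 24 that left out 1 library, and 2.19 in the lowest. A difference in the succinate response of these genes between the sexes thus passed the threshold with some tools and, with edgeR, only when 1 or the other of these libraries was left out.

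Loss of *Ptk6* was compared in each sex and treatment. Among controls no member was called in either sex. *Ptk6*−/− control females had all 3 libraries above the wild type ones for *Plcb2*, the 1 member so separated (8.51% of 19035 genes), with a log2 fold change of 1.27 ± 0.23 SE (adjusted p = 0.367, edgeR). edgeR called 0 of the 7 members tested (0.0158% of genes), with 1 at an unadjusted p under 0.05 (11.1% of genes). DESeq2 and voom called *Plcb2* (1.72% and 10.4% of genes), as edgeR did without *Ptk6*−/− female control replicate 3 (9.65% of genes). Markers of blood cells were summed beside it. The B cell list described below summed to 34.0 to 90.4 CPM against 18.1 to 34.5 CPM, which overlapped narrowly, with 12 of 12 estimates positive and a median of 1.72. The macrophage and myeloid list was at 517, 398 and 1020 CPM against 458, 598 and 391 CPM, so that 1 *Ptk6*−/− library stood high, with 11 of 12 estimates positive and a median of 0.49. No gene of either list was called, and their part in the *Plcb2* value was not tested. In control males 0 of 8 members tested were called (0.739% of 19218 genes) and 0 had an unadjusted p under 0.05 (25.2% of genes), and DESeq2 (which gave 4 of them an adjusted p) and voom also called 0 (2.23% and 3% of genes). Without the wild type control rich in 18S 0 were called and none was separated (21.6% of genes were separated higher and 24.2% lower). Then 0 members had an unadjusted p under 0.05 (25.8% of genes).

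After succinate, *Ptk6*−/− males were lower than wild type males without overlap for 3 members, *Ffar3*, *Sucnr1* and *Plcb2* (5.88% of 18904 genes). The log2 fold changes were −1.74 ± 0.78 SE for *Ffar3*, −1.50 ± 0.80 SE for *Sucnr1* (−2.31 without *Ptk6*−/− replicate 3) and −0.57 ± 0.35 SE for *Plcb2*. edgeR called 0 members (0% of genes) and 0 had an unadjusted p under 0.05 (2.72% of genes). DESeq2 called 0 (0.356%) and voom called 1, *Ffar3* (9.52% of genes). Without the *Ptk6*−/− library rich in 18S the values were −1.44, −1.25 and −0.47, *Itpr2* joined these 3 as separated (9.26% of genes), 0 were called and 1 had an unadjusted p under 0.05 (4.82% of genes). The B cell list was lower too, at 19.8 to 49.4 CPM in *Ptk6*−/− against 124 to 152 CPM in wild type treated males, with 0 of 12 estimates positive and a median of −2.55, and this range was the same without that library. The macrophage and myeloid list had 2 of 12 positive and a median of −0.57. None of these 24 markers was called, and their part in the *Plcb2* value was not tested. Succinate-treated *Ptk6*−/− females were higher than wild type females without overlap for 2 members, *Rgs13* and *Gnat3* (6.31% of 19180 genes), at 1.05 ± 0.40 SE and 1.45 ± 0.58 SE on the log2 scale. Here too edgeR and DESeq2 called 0 (0% and 0.15% of genes), with 2 at an unadjusted p under 0.05 by edgeR (4.52% of genes). Without the library labelled female wild type succinate replicate 2 the values were 1.07 and 1.18, and 0 members had an unadjusted p under 0.05 (2.08% of genes).

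Whether the succinate response itself differed with genotype was tested as an interaction. In males the *Ptk6*−/− response minus the wild type response was negative for 7 of the 9 members tested, from −1.98 ± 0.95 SE for *Ffar3* to 0.58 ± 0.41 SE for *Trpm5* on the log2 scale. None was called (0% of 20340 genes), 0 had an unadjusted p under 0.05 (3.8% of genes), and every adjusted p was 0.993 by edgeR. Without the high 18S libraries of the male groups 0 were called, the *Ffar3* difference was −1.34 and that of *Sucnr1* −0.86, from −1.53 ± 1.22 SE. Leaving out wild type control replicate 3 instead gave −2.46 for *Sucnr1*. In females the interaction was positive for 6 of the 10 members and called for none (0% of 20531 genes), with 1, *Plcb2*, at an unadjusted p under 0.05 (6.46% of genes), at −1.18 ± 0.44 SE (−1.07 without the library of mixed sex). The contrast of these interactions between the sexes called 0 of the 10 (0% of 21694 genes), and 0 without the 3 libraries. With all libraries 0 members had an unadjusted p under 0.05 (5.99% of genes). DESeq2 called 0 members in each of these 3 comparisons (0.381% of genes in males, 0.312% in females and 0.478% for the contrast between the sexes). In males it gave 7 of the 9 an adjusted p. Standard errors of the male differences ran from 0.33 to 1.74, and a p that misses the threshold does not show that the genotypes responded alike.

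Levels of different genes were compared per length, in FPKM. In the 12 controls the order by mean was *Trpm5* (1.21 ± 0.34 SD FPKM), *Itpr2* (0.972 ± 0.289), *Rgs13* (0.721 ± 0.314), *Plcb2* (0.673 ± 0.288), *Ffar3* (0.324 ± 0.142), *Tas1r3* (0.257 ± 0.0557), *Sucnr1* (0.184 ± 0.112), *Gng13* (0.0886 ± 0.0782), *Gnat3* (0.0886 ± 0.0628) and *Chat* (0.0565 ± 0.0489). Of the 9 pairs of neighbours, *Plcb2* and *Ffar3* alone differed by more than the larger of their SDs, with *Plcb2* higher in 11 of 12 libraries. Without the control rich in 18S the order was the same, and *Sucnr1* and *Gng13* (0.201 and 0.0967) also differed by more than their SDs. In the 6 succinate-treated females the order became *Trpm5* (6.80 ± 3.04), *Rgs13* (6.41 ± 4.29), *Ffar3* (3.30 ± 1.71) and then *Plcb2*, *Gng13*, *Sucnr1* and *Itpr2* within 1.38 to 1.45. *Ffar3* stood above *Plcb2* in 6 of 6 of these libraries. *Trpm5* and *Rgs13* could not be ranked there, since *Trpm5* was higher in 2 of the 6. Without the library labelled female wild type succinate replicate 2, *Rgs13* came first by mean (6.93 against 6.53), *Ffar3* no longer exceeded *Plcb2* by more than its SD, and *Gng13* ranked behind *Itpr2*, at 0.998. The receptor for succinate thus remained below the channel at the end of the cascade in both settings, by mean FPKM. FPKM were not corrected for the 18S share, which lowers all values of the 2 libraries concerned.

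**Figure D3:**
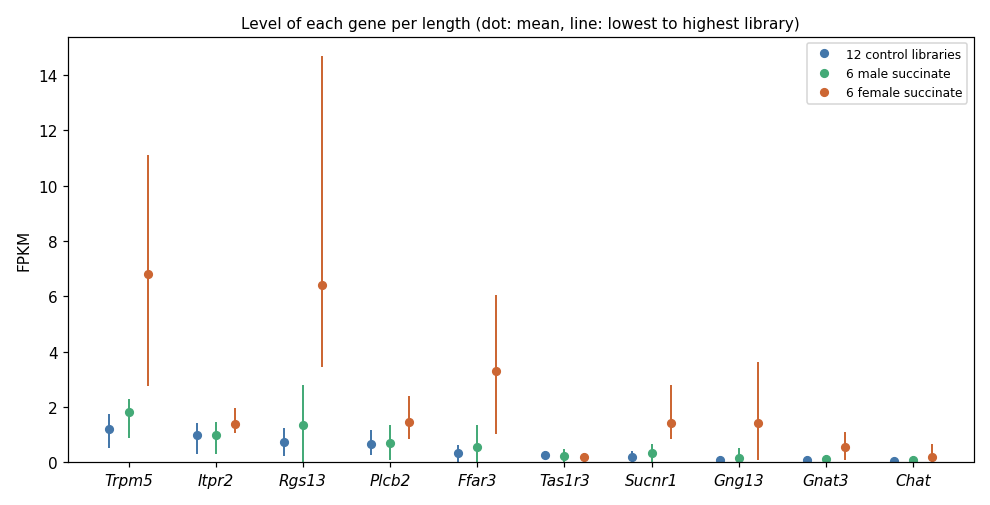
FPKM (vertical axis, from 0) of each gene in the 12 controls and in the 6 male and 6 female succinate mice; dots are means and lines run from the lowest to the highest library. *Rgs13* and *Ffar3* rank 3 and 5 in controls, and 2 and 3 in treated females.

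Tuft cell identity genes outside the cascade rose in the same comparison. Of 20 such genes, 13 were called higher and 0 lower in the averaged comparison, with a median log2 fold change of 1.68. Examples are *Avil* (1.67 ± 0.21 SE), *Dclk1* (1.26 ± 0.20 SE) and *Pou2f3*, the master regulator of the lineage (1.72 ± 0.32 SE). Their summed level was 95.9 to 123.3 CPM over the 12 controls. After succinate it was 208 to 577 CPM in wild type females, 286 to 602 CPM in *Ptk6*−/− females, 172 to 212 CPM in wild type males and 62.8 to 142 CPM in *Ptk6*−/− males, or 81.4 to 142 CPM without the library rich in 18S. The 10 members summed to 69.7 to 151.8 CPM in treated wild type females (controls 33.8 to 47.7) and 79.2 to 170.5 CPM in treated *Ptk6*−/− females (32.5 to 45.3). In treated males they summed to 52.5 to 66.0 CPM in wild type (39.4 to 48.3) and 47.8 to 51.6 CPM in *Ptk6*−/− mice (39.0 to 47.4). Without the library rich in 18S the latter were at 47.8 to 49.3 CPM. *Trpm5* and *Itpr2*, with 24941 and 22686 counts over all libraries, weigh most in these sums. *Il25* had 3 to 61 counts in treated females, 6 to 9 in treated wild type males and 0 in all treated *Ptk6*−/− males, against 0 in all male controls and 0 to 4 in female controls.

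Few other genes of the pathway were called. Of 37 other taste, bitter and metabolite receptors 11 had any count, 6 could be tested and 0 were called. The short chain fatty acid receptor *Ffar2* was at 0.94 ± 0.29 SE (adjusted p = 0.133, edgeR), and *Vmn2r26* had the highest estimate, 2.08, from counts too sparse for a usable error. The other 4 were negative, and the median of the 6 was −0.52. Of 18 other G protein subunits and regulators 17 could be tested and 0 were called, with a median log2 fold change of −0.05. *Gnb3*, the beta subunit of taste cells, had the highest estimate of these, 2.05, with libraries mostly at 0 counts. Its highest value, 212 counts (6.88 CPM), was in the library labelled female wild type succinate replicate 2, which held heart muscle transcripts. No other group exceeded 16 counts. Of 14 other phospholipases, calcium release genes and channels 13 could be tested and 1 was called, *Irag2* (1.55 ± 0.23 SE, adjusted p = 0.000987, edgeR), a partner of inositol trisphosphate receptors. *Calhm3*, a taste cell channel subunit, was at 1.84 ± 0.72 SE (adjusted p = 0.227, edgeR). *Itpr3* and *Trpm4*, relatives of *Itpr2* and *Trpm5*, were at 0.02 ± 0.12 SE and −0.43 ± 0.15 SE. Of 6 genes of acetylcholine handling 0 were called, and *Chrm3*, a muscarinic receptor, had the largest estimate (0.62 ± 0.21 SE, adjusted p = 0.171, edgeR), with the other 5 negative and a median of −0.39.

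Markers of other cells that express some members were summed in the same way. A list of 12 germinal centre and follicle B cell genes, bearing on *Rgs13*, summed to 20.3 to 102 CPM in treated and 34.0 to 90.4 CPM in control *Ptk6*−/− females. These sums overlapped, with 1 of 12 estimates positive and a median of −0.37. In wild type males the list was at 124 to 152 CPM after succinate against 26.8 to 98.4 CPM, or 26.8 to 41.2 CPM without the control rich in 18S. In wild type females it overlapped, at 30.4 to 93.5 CPM after succinate (30.4 to 58.8 CPM without the library labelled replicate 2) against 18.1 to 34.5 CPM. Its 12 estimates were positive in both of these groups, with medians of 1.48 in males and 1.54 in females, and in the averaged comparison, with a median of 0.50. None of the 12 was called in these comparisons, and its part in the *Rgs13* and *Plcb2* values was not tested. The 12 macrophage and myeloid genes, which bear on *Plcb2*, were at 405 to 598 CPM in treated and 391 to 598 CPM in control wild type females. The 12 enteric neuron genes, which bear on *Chat*, were at 98.4 to 126 CPM in treated and 92.6 to 154 CPM in control *Ptk6*−/− females. In wild type males they were at 88.5, 200.8 and 281 CPM after succinate against 89.5 to 107 CPM, with 10 of 12 estimates positive and a median of 0.87, and the treated mouse at 200.8 CPM had 0 counts of *Chat*. Their part in the *Chat* values was not tested. None of these 36 markers was at 0 counts throughout a group.

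**Figure D4:**
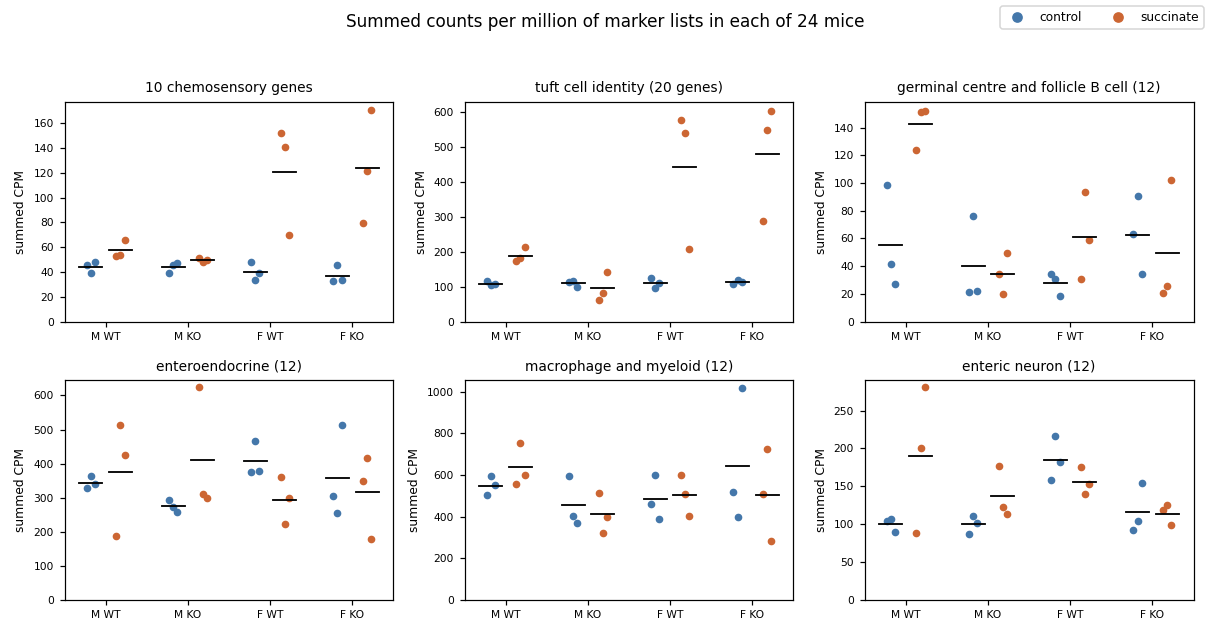
Summed CPM (vertical axis, from 0) of the 10 members and of 5 marker lists in each mouse, laid out as male (M) and female (F) wild type (WT) and *Ptk6*−/− (KO), with lines at the mean of 3. The members and the tuft cell list are highest in treated females, and the B cell list is highest in treated wild type males.

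Within groups, the members were also followed mouse by mouse. Each gene's log2 CPM was centred on its group mean, and the 24 deviations were correlated, as a description only, since the points share libraries and depth. *Sucnr1* followed the mean of the other 9 members most closely (Pearson's r = 0.87), then *Ffar3* (0.76) and *Rgs13* (0.75). *Trpm5* (0.15), *Gng13* (0.11) and *Itpr2* (0.03) did so least among those with a positive r, and *Tas1r3* was at −0.29. Without the 2 libraries rich in 18S the order changed, with *Sucnr1* at 0.68, *Trpm5* at 0.56, *Plcb2* at 0.49, *Rgs13* at 0.42, *Itpr2* at 0.40, *Ffar3* at 0.27, *Gnat3* at 0.072, *Gng13* at −0.067, *Chat* at −0.14 and *Tas1r3* at −0.58. The deviations of *Sucnr1*, *Ffar3* and *Rgs13* also followed the effective library size (r = 0.76, 0.81 and 0.79). The 8 other named genes most like the mean of the members were *Myadm* (r = 0.92), *Zmat4* (0.91), *Lmbr1* (0.90), *Gsdmc* (0.90), *Lrrc28* (0.89), *Nrn1* (0.89), *Bmx* (0.88) and *Gfm2* (0.88). Without those 2 libraries their r fell to between 0.54 and 0.79, so the likeness rests in part on them. Their ranks were then 5 for *Myadm*, 13 for *Zmat4* and 44 (*Gsdmc*) to 312 (*Gfm2*) for the others. *Bmx* was the 1 of these 8 in the tuft cell list.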

How the data were processed

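Stranded poly(A) RNA sequencing of distal jejunum covered 24 mice. The authors trimmed reads with Cutadapt, aligned them with HISAT2 and assembled and quantified them with StringTie and ballgown, on GRCm39 per the submitters' processing notes. They deposited raw gene counts and, in a second table, FPKM (fragments scaled by gene length and library size), with the counts repeated there. Groups came from the sample labels, and 0 columns belonged to samples outside the series. No 2 libraries held identical counts. Mice are separate animals, so p-values measure the spread between them.

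Deposited counts were tested with edgeR 4.0.16 (R 4.3.3): TMM scaling, a filter of 10 or more counts in 3 or more libraries of the fit, the quasi-likelihood test and Benjamini-Hochberg adjustment over all genes tested. A 2-group comparison used its own 6 libraries. The averaged and three-way comparisons used all 24, and the interactions the groups they name. SE is the log2 fold change divided by the square root of F. CPM divides counts by TMM-scaled library sizes over 24 libraries. Alternatives were DESeq2 1.42.0, DESeq2 size factors, no filter, a replicate block, a gene length offset, voom and limma 3.58.1 on log2(FPKM + 1) for genes of mean FPKM 0.5 or more, a single fit of all 24 libraries, and leaving out each library. The edgeR test was tried on simulated data, with changes given to genes drawn from all those tested. For succinate in *Ptk6*−/− females it recovered 0% of 2-fold, 28% of 4-fold and 86% of 8-fold changes. For the averaged comparison these shares were 38%, 88% and 92%, and for the interaction in males 0%, 16% and 40%.

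Named genes are the 10 members, genes they overlap, the called or most changed genes of the pathway lists with relatives of members, and the 8 most like the members. Genes of the tuft cell and smooth muscle lists are named as examples, and *Ptk6* and *Xist* as checks of the labels. The members, lists and tests were chosen with earlier results of these data known. The sexes were compared, and 3 libraries left out together, after seeing the data. Replicate numbers were not used to pair the mice in the main fits. Over 8 comparisons 2 of 24 same-numbered pairs correlated above 0.1, with r from −0.356 to 0.234. Pairs of different numbers were not compared, so whether a number marks shared handling was not tested. Which strand setting was used for counting is not given in the sources used here, so reads of overlapping genes may be shared.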

Additional observations from a re-analysis of the deposited data

How the results depend on the processing

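Over 14 comparisons and all alternatives, 137 of 2578 member values changed sign, none of them called in the main or the alternative fit. By share, sign changes were most frequent for succinate in *Ptk6*−/− males (25 of 130) and genotype in control males (20 of 116). The genotype by succinate interaction in females followed (27 of 197). The averaged succinate comparison had 0 of 326. Its count of 4 members called was 6 with DESeq2 and with voom, 2 with limma on log2(FPKM + 1) (0.496% of genes), where *Sucnr1* (0.568) and *Ffar3* (0.904) passed on adjusted p and stayed under 2-fold on that scale, and 3 to 5 when 1 library was left out. Under DESeq2 the count was 6 in wild type females (with *Gng13*) and 5 in *Ptk6*−/− females (with *Gnat3*, 2.25% of genes). It was 1 between genotypes in control females, 4 for the sex interaction averaged over genotype and 2 for that within *Ptk6*−/− mice. With voom these comparisons gave 3 members in *Ptk6*−/− females (1.03%), 1 in control females and 2 for the averaged sex interaction, and voom called 2 in wild type males and 1 between genotypes in succinate-treated males. All 24 libraries in 1 fit gave 3 in wild type and 3 in *Ptk6*−/− females (0.401% and 0.608% of genes). With limma on log2(FPKM + 1) there were 2 in *Ptk6*−/− females (0.231%) and 2 for each sex interaction, and the *Trpm5* interaction of genotype and succinate in males became −0.236 (adjusted p = 0.67). The *Tas1r3* estimate lay between −0.664 and 0.125 in wild type males and between −0.668 and 0.195 in *Ptk6*−/− males when 1 library was left out, was 0.0255 in the latter with a length offset, and was 0.0172 in *Ptk6*−/− females with voom. With a length offset 1 member was called in *Ptk6*−/− females, *Ffar3* in place of *Rgs13*. The cause of these differences was not tested.

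With the replicate number as a replicate block, 0 members were called in *Ptk6*−/− females, also with the length offset, and 4 in the averaged comparison; it changed no other count. Leaving out 1 library gave 0 to 4 members in wild type females, 0 to 1 in *Ptk6*−/− females, 0 to 1 in control females and 0 to 3 for the averaged sex interaction. *Sucnr1*, *Gnat3*, *Gng13* and *Chat* rest on few counts, and 3 mice a group limit every single-group value.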
